A study of Mus musculus with 6 samples.

Results

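Among the genes of the MOS-MAPK pathway and of metaphase II arrest, Mapk3, which encodes the kinase ERK1, was lower in oocytes of reproductively old mice matured in vivo (IVO) than in those matured in vitro (IVM). Its level averaged 228 ± 124 FPKM (SD, n = 3) in the IVM group and 53.7 ± 10.8 FPKM (SD, n = 3) in the IVO group. The 8 genes described here were given by name: Mos, Map2k1, Mapk3, Rps6ka1, Rps6ka2, Rps6ka3, Fbxo43 and Plk1. All 8 were found under an Ensembl identifier among the 60193 genes listed, and 6 of them passed the filter on low values among 18818 tested genes. Female ICR mice aged 42 to 45 weeks, primed with PMSG, gave the oocytes of both groups. For IVM, oocytes freed of their cumulus cells at the germinal vesicle stage were cultured in M16 medium for 12 h. For IVO, ovulated oocytes were taken from the oviduct 14 h after an injection of hCG and cleared of cumulus cells with hyaluronidase. Each of the 3 IVM and 3 IVO samples pooled 20 metaphase II (MII) oocytes from 3 mice, so that route of maturation, hormone exposure and hours of maturation differ together between the groups and cannot be told apart.

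MOS is a germ-cell kinase whose stored mRNA is translated as the oocyte matures. It activates MEK1 (Map2k1), MEK1 phosphorylates ERK kinases such as ERK1 (Mapk3), and the ERKs in turn activate the p90 ribosomal S6 kinases (RSK, the Rps6ka genes). This cascade keeps the spindle in order and helps to hold the egg at metaphase II until fertilization. The arrest itself rests on EMI2 (Fbxo43), which inhibits the anaphase-promoting complex so that cyclin B is not destroyed. At fertilization a calcium signal, CaMKII and the polo-like kinase PLK1 mark EMI2 for destruction. The oocyte at this stage makes almost no new RNA, so mRNA levels reflect what was stored, polyadenylated and degraded.

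The values are FPKM, fragments scaled to transcript length and library size. The log2FC is IVO minus IVM in log2(FPKM + 1), a scale on which the fold of a gene with low FPKM comes out too small. A gene was called when its log2FC was at least 1 in size and its adjusted p-value from limma was under 0.05. FPKM is relative to the rest of each library, so less mRNA per oocyte and a larger share of other mRNAs cannot be told apart. From the steps between low FPKM values, depth was inferred at 16640000 to 19380000 fragments in IVM and 18020000 to 18240000 in IVO samples, with a mean fragment length of 204 to 220 bases with IVM and 250 to 264 bases with IVO. The median FPKM of the tested genes was 9.63 to 10.4 with IVM and 6.66 to 7.13 with IVO, and the median log2FC of all tested genes was -0.30. With median-ratio scaling, which centers the middle gene, that median was -0.04. All 10 oocyte markers examined reached 1 FPKM in every library, and 5 of them (Zp1, Zp2, Zp3, Nlrp5 and Padi6) were called lower in IVO, beside 17.9% of all tested genes. Of 16 granulosa and cumulus cell markers, 4 reached 1 FPKM in every library (Cyp19a1, Fshr, Nr5a2 and Gata4), whereas Amh was listed at 0 in all 6 libraries and Foxl2 reached 0.02 FPKM at most. The summed FPKM of these 16 markers was 67.1 to 68.6 with IVM and 48.0 to 58.4 with IVO, where Nr5a2 was at 28.3 to 39.2 FPKM with IVM and at 13.5 to 17.8 FPKM with IVO. In 4 cumulus genes of the list, all under the filter, every IVO value lay above every IVM value. This order held in 9.62% of all tested genes, which passed the filter. Its share among genes under the filter was not computed, so the 9.62% is no background for these 4 genes. Fst had at most 0.12 FPKM in IVM and 0.36 to 1.73 FPKM in IVO libraries. Tnfaip6 had at most 0.14 and 0.34 to 0.49 FPKM, and Has2 at most 0.14 and 0.17 to 0.37 FPKM. Ptx3 had at most 0.03 and 0.07 to 0.17 FPKM. Ptgs2, also under the filter, had a higher mean with IVO (0.097 FPKM with IVM, 0.360 with IVO) and overlapping groups. Some other genes under the filter had lower means with IVO and overlapping groups. Among those with lower means were Inha (0.570 FPKM with IVM, 0.213 with IVO), Inhba (0.117 and 0.080) and Cyp11a1 (0.123 and 0.060). The part of either marker list in the results was not tested.

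Of the 6 members tested, 1 (Mapk3) was called lower in IVO and 0 were called higher, where 17.9% of all tested genes were called lower and 0.606% higher. Over all tested genes that is 3366 lower and 114 higher, and with median-ratio scaling 2106 lower and 393 higher. At an unadjusted p-value under 0.05, 2 of the 6 differed, both lower in IVO, where 36.9% of all tested genes differed and 5.56% were higher in IVO at that p-value. All 3 IVO values lay below all 3 IVM values in Mos and Mapk3, which is 2 of 6 members beside 32.6% of all tested genes. In none of the 6 did all IVO values lie above all IVM values, as they did in 9.62% of all tested genes. The median log2FC of the 6 members was 0.02. In IVM oocytes the order of mean FPKM was Mos, Mapk3, Map2k1, Plk1, Fbxo43 and Rps6ka3, followed by Rps6ka1 and Rps6ka2, and in IVO oocytes Map2k1 stood above Mapk3. Neighbours in this order whose values overlapped were Mapk3 and Map2k1 in IVM and Mapk3 and Plk1 in IVO samples. The values of Plk1 and Fbxo43 overlapped in IVM samples but not in IVO samples, and those of Fbxo43 and Rps6ka3 overlapped in both groups.

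**Figure D1:**
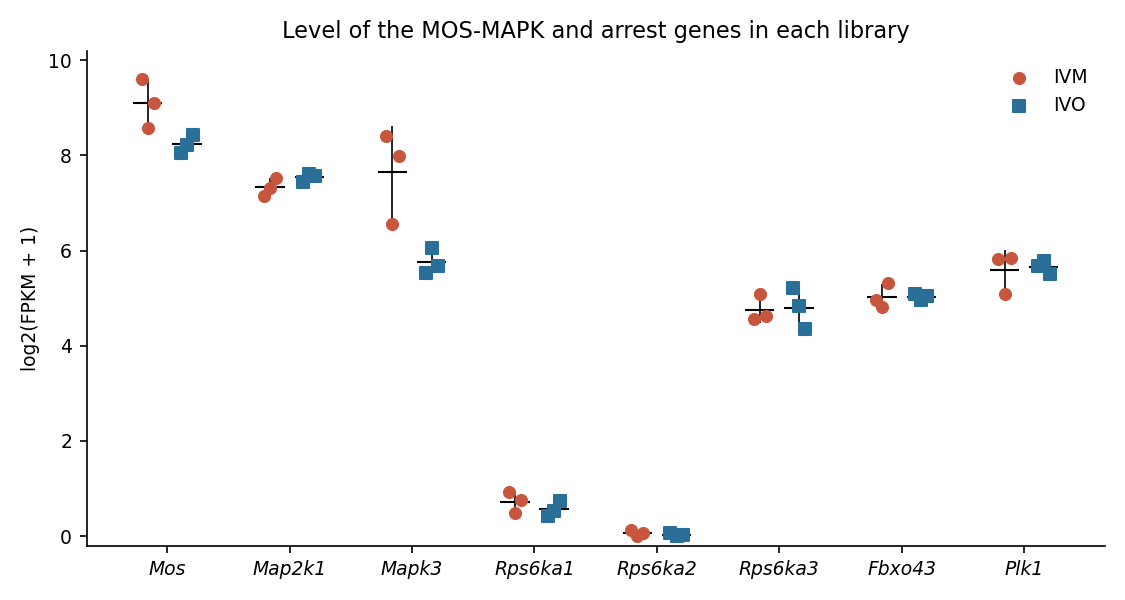
Level of the 8 genes in each library as log2(FPKM + 1), with IVM libraries as circles and IVO libraries as squares; bars are the mean and the SD of 3 libraries. Mapk3 and Mos have every IVO square below every IVM circle, and Rps6ka1 and Rps6ka2 are the lowest of the 8 genes in all 6 libraries, under 1 on this axis.

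The cDNA was primed from poly(A) tails, and the annotated 3′ ends of the tested members other than Rps6ka3 are shown so that the poly(A) signal can be compared between genes. Each is a stretch of 30 bases of the sense strand from the annotated 3′ UTR of the canonical transcript in GENCODE vM39 (GRCm39), and capitals mark a poly(A) signal, AATAAA or ATTAAA.
Mos (chr4:3870657-3870686, minus strand): ttttaggaAATAAAgttaccacgaacttca
Map2k1 (chr9:64093051-64093080, minus strand): caagttaaAATAAAagggacaagagatttc
Mapk3 (chr7:126364962-126364991, plus strand): atataaatatagagatgtgtatatggatga
Fbxo43 (chr15:36150206-36150235, minus strand): aataATTAAAtttaaaatttacatattttc
Plk1 (chr7:121769075-121769104, plus strand): tatATTAAAatgtgtacatctctctctctc
Either signal was found in the last 50 bases of 6 of the 8 members, all but Mapk3 and Rps6ka3, and in 77.3% of the 9753 canonical coding transcripts of tested genes with a 3′ UTR of at least 100 bases. A cytoplasmic polyadenylation element, searched as TTTTAT or TTTTAAT on the sense strand in the last 100 bases, was found in Rps6ka2 alone among the members and in 19.3% of those transcripts. Either motif can overlap a poly(A) signal, and other forms of the element were not searched. These matches describe the annotated letters, and which 3′ ends the oocytes used was not measured.

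Mos, the kinase at the head of the cascade, is a gene of a single exon on chromosome 4 of GRCm39 (minus strand, chr4:3870657-3872105; ENSMUSG00000078365), with a 3′ UTR of 126 bases. It was the most abundant member in both groups, above at least 94.3% of the tested genes in each library. The IVM libraries held 783, 380 and 548 FPKM of Mos, and the IVO libraries 266, 296 and 346 FPKM. The groups did not overlap, and IVM replicate 2 was the IVM library nearest to the IVO range. The log2FC was -0.86 (95% interval -1.50 to -0.22, adjusted p = 0.0609 from limma), which did not pass the threshold. With median-ratio scaling it was -0.53 (adjusted p = 0.193), and with quantile normalization -0.35 (adjusted p = 0.345). Without IVM replicate 2 it was -1.12 (adjusted p = 0.0310) and Mos was called lower, which held in 1 of the 6 fits that left out a library. Without IVM replicate 1 it was -0.60 (adjusted p = 0.134). Set against Gdf9, an oocyte-secreted growth factor measured in the same library, Mos stood at 0.436, 0.370 and 0.415 in IVM and at 0.276, 0.271 and 0.338 in IVO samples, with no overlap. Set against Bmp15, the other such factor among the markers, Mos stood at 0.727, 0.532 and 0.549 in IVM and at 0.577, 0.669 and 0.700 in IVO samples, which overlapped with the higher mean in IVO. By rank IVM replicate 2 was also below all 3 IVO libraries, since Mos exceeded 94.3% of the tested genes there and 94.5% to 95.4% in the IVO libraries. The 3 named genes whose values over the 6 libraries lay closest in pattern to Mos were Pabpn1l, Nlrp14 and Ube2b, with root mean square differences of 0.128, 0.132 and 0.134 on the log2 scale among 1703 genes of similar level.

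Map2k1 (MEK1, chr9:64093048-64160992) is the kinase that MOS phosphorylates. Its level was 141, 157 and 184 FPKM with IVM and 174, 193 and 190 FPKM with IVO. The groups overlapped, with the lowest values in IVM replicates 1 and 2. The log2FC was 0.21 (95% interval -0.19 to 0.61, adjusted p = 0.409 from limma), and with quantile normalization, which gives every library the same distribution, it was 0.70 (adjusted p = 0.0344), still under the threshold of 1. Its paralog Map2k2 (MEK2) was measured at 2.25 to 8.29 FPKM with IVM and 4.02 to 5.20 FPKM with IVO, with overlapping groups, so that Map2k1 had 18.3 to 69.9 times the FPKM of Map2k2 in IVM and 37.1 to 47.2 times in IVO samples.

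Mapk3 (ERK1, chr7:126358723-126364991, plus strand; ENSMUSG00000063065) was measured at 337, 92.6 and 254 FPKM in the IVM libraries, against 44.9, 65.8 and 50.5 FPKM in the IVO libraries. IVM replicate 2 was far below the other 2 IVM libraries and still above every IVO library. The mean of the IVO libraries was 0.236 of the IVM mean, and the log2FC was -1.89 (95% interval -2.97 to -0.81, adjusted p = 0.0257 from limma). In its own library Mapk3 ranked above 93.6%, 83.9% and 92.8% of the tested genes in IVM and above 79.7%, 84.6% and 81.2% in IVO samples, so that by rank IVM replicate 2 lay among the IVO libraries. With median-ratio scaling the log2FC was -1.57 and the call held (adjusted p = 0.0483). The call was lost with quantile normalization, at -1.39 (adjusted p = 0.0674), and with libraries scaled to the same sum, at -1.56 (adjusted p = 0.0574). It was also lost when any of IVM replicate 1, IVM replicate 3, IVO replicate 1 or IVO replicate 3 was left out, at -1.52, -1.72, -1.77 and -1.86, with adjusted p-values of 0.0819, 0.0941, 0.0707 and 0.0621. Without IVM replicate 2 the log2FC was -2.44 (adjusted p = 0.00962).

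The genes closest in pattern to Mapk3 over the 6 libraries were Fis1, Rbpms2 and Lamtor1, with root mean square differences of 0.292, 0.301 and 0.304 on the log2 scale among 3751 genes of similar level. Fis1 encodes a mitochondrial fission receptor, Rbpms2 an RNA-binding protein and Lamtor1 a lysosomal anchor of the MP1-MEK1 scaffold. Fis1 was measured at 171, 70.2 and 135 FPKM in IVM and at 40.8, 39.8 and 30.1 FPKM in IVO samples, with IVM replicate 2 the lowest IVM library, as for Mapk3. Over all tested genes IVM replicate 2 was the lowest IVM library in 37.8% of them, and over the 8 members in 6. What sets this library apart was not tested.

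The RSK genes encode the kinases that act below the ERKs. Rps6ka3 (RSK2, chrX:157993303-158151689) was the only one of the 3 RSK members above the filter. Libraries of the IVM group had 22.6, 32.8 and 23.7 FPKM, and those of the IVO group 36.3, 27.4 and 19.5 FPKM. The highest and the lowest of the 6 values both belonged to IVO libraries. The log2FC was 0.05 (95% interval -0.60 to 0.70, adjusted p = 0.923 from limma), and with median-ratio scaling and quantile normalization it was 0.36 and 0.53. Rps6ka1 (RSK1) had 0.41 to 0.90 FPKM with IVM and 0.34 to 0.67 FPKM with IVO, which corresponds to about 17 to 31 and 13 to 25 fragments. Rps6ka2 (RSK3) was at 0 to 0.10 FPKM with IVM and 0 to 0.04 FPKM with IVO, at most about 9 fragments in a library, and 3 fragments correspond to 0.0298 to 0.0348 FPKM for this gene. A difference in Rps6ka2 was not detectable at this depth. Rps6ka3 held 97.2% ± 1.51 (SD, n = 3) of the summed FPKM of the 3 genes with IVM and 98.0% ± 1.24 (SD, n = 3) with IVO, a difference of 0.798 percentage points (p = 0.6, two-sided exact permutation test). For the shares of Rps6ka1 and Rps6ka2 the exact permutation test gave p = 0.6 and p = 0.5. After adjustment over the 4 shares tested, the permutation p-value of all 3 RSK shares was 0.6. With 3 libraries against 3 this test gives no p-value under 0.1. It could therefore not reach 0.05, and these p-values do not show that the shares are the same.

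Another gene of the family, Rps6ka6 (RSK4), belongs to the wider pathway list. It had 31.0, 31.5 and 37.1 FPKM in IVM libraries and 50.4, 49.5 and 49.2 FPKM in IVO libraries. All 3 IVO values lay above the IVM values, with a log2FC of 0.57 (95% interval 0.17 to 0.98, adjusted p = 0.0513 from limma). With median-ratio scaling the log2FC was 0.89 (adjusted p = 0.0158), and with quantile normalization it was 1.05 (adjusted p = 0.0102) and Rps6ka6 was called higher. Per length Rps6ka6 was at 0.960 to 1.57 times the FPKM of Rps6ka3 in IVM and 1.39 to 2.52 times in IVO samples, so both were well above Rps6ka1 and Rps6ka2 in every library.

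Fbxo43 encodes EMI2 and lies at chr15:36150206-36165129. Its mRNA was measured at 29.99, 27.3 and 39.1 FPKM with IVM and at 33.1, 30.1 and 31.9 FPKM with IVO. The IVO values lay inside the IVM range, and the log2FC was -0.00 (95% interval -0.48 to 0.47, adjusted p = 0.993 from limma). With median-ratio scaling it was 0.31 (adjusted p = 0.243), so no direction can be given. Plk1, the mitotic and meiotic polo-like kinase (chr7:121758646-121769108), was present at 55.6, 33.1 and 56.5 FPKM in IVM libraries and at 50.2, 54.0 and 44.7 FPKM in IVO libraries. Its IVM values spread more widely than its IVO values, with IVM replicate 2 the lowest of the 6. The log2FC of Plk1 was 0.07 (95% interval -0.52 to 0.66, adjusted p = 0.871 from limma), and without IVM replicate 2 it was -0.18. Plk1 stood at 1.21 to 1.85 times the FPKM of Fbxo43 in IVM and 1.40 to 1.79 times in IVO samples. For both arrest genes the intervals with the deposited FPKM exclude a change of 1 on the log2 scale, the size required for a call.

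**Figure D2:**
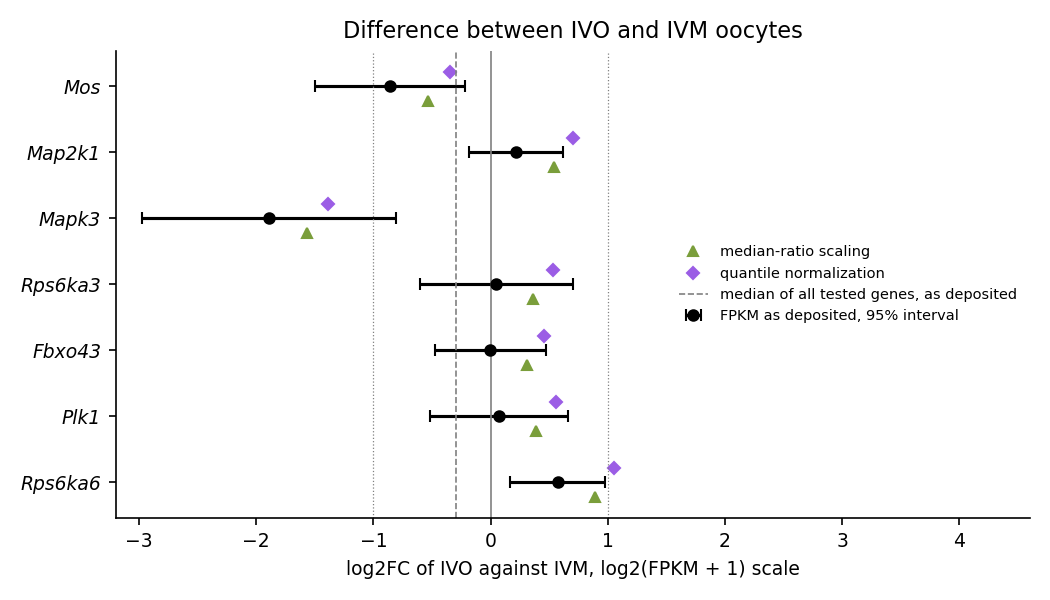
Difference of IVO against IVM for the 6 tested members and for Rps6ka6, as log2FC on the log2(FPKM + 1) scale; circles with bars are the deposited FPKM with 95% intervals, triangles median-ratio scaling and diamonds quantile normalization. The solid line marks 0, the dashed line the median of all tested genes at -0.30, and the dotted lines -1 and 1; Mapk3 is the only gene drawn whose 3 values all lie below -1.

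The 3 lists of other genes of the pathway held 50 tested genes matched by symbol. Of these, 10 were called lower in IVO and 0 higher (17.9% and 0.606% of all tested genes). At an unadjusted p-value under 0.05, 15 of the 50 differed, 2 of them higher in IVO, beside 36.9% and 5.56% of all tested genes. Their median log2FC was -0.09.

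The cascade list holds the RAS and RAF proteins, MEK2, kinases activated by ERK, and scaffolds. Of its 23 genes, 22 were matched by symbol and 19 of these were tested, with a median log2FC of -0.14. The remaining gene had no match by symbol, although its Ensembl identifier is listed, and was left out. Among those tested, 4 were called lower and 0 higher, beside 17.9% and 0.606% of all tested genes. Hras, a RAS GTPase, fell from 24.3 ± 10.6 FPKM (SD, n = 3) with IVM to 4.33 ± 0.289 FPKM (SD, n = 3) with IVO (log2FC -2.15, adjusted p = 0.00663 from limma), while its relative Nras was not called, with a log2FC of -0.27. The other 3 genes called were subunits of the Ragulator complex, which anchors the MEK1 scaffold MP1 to lysosomes. Lamtor1 was at 176, 78.7 and 151 FPKM in IVM and at 25.0, 26.9 and 29.6 FPKM in IVO samples (log2FC -2.20, adjusted p = 0.00427 from limma). Lamtor5 and Lamtor4 fell to 0.436 and 0.394 of their mean FPKM in IVM, and neither was called with median-ratio scaling, where their log2FC was -0.85 and -0.88. Lamtor3, which encodes MP1 itself, and Lamtor2 were not called, with log2FC of 0.39 and 0.31. Whether subunits of the complex differed from each other was not tested. Araf, the RAF kinase with the highest FPKM and the most abundant gene of the list, had 388 ± 82.1 FPKM (SD, n = 3) with IVM and 224 ± 39.7 FPKM (SD, n = 3) with IVO. Its log2FC was -0.78 (adjusted p = 0.0425 from limma), which is under the fold threshold.

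The list of ERK phosphatases and inhibitors held 13 tested genes of 23, of which 4 were called lower and 0 higher. Over all tested genes, 17.9% were called lower and 0.606% higher. The median log2FC of the list was 0.02. Pebp1, the RAF kinase inhibitor protein, was at 115, 70.2 and 118 FPKM in IVM and at 25.7, 24.2 and 22.6 FPKM in IVO samples (log2FC -1.98, adjusted p = 0.00264 from limma). Dusp10, a phosphatase known for acting on p38 and JNK rather than ERK, was at 24.2, 18.5 and 20.7 FPKM in IVM and at 5.24, 4.63 and 5.44 FPKM in IVO samples (log2FC -1.85, adjusted p = 0.00187 from limma). Both remained called in each of the 6 fits that left out a library. Dusp16, which also acts mainly on JNK and p38, had a log2FC of -1.41 and was called in 3 of these 6 fits. Spred2, an inhibitor of RAS signalling, had a log2FC of -2.05 and was called in 2 of the 6. With median-ratio scaling neither was called (adjusted p = 0.0503 for Dusp16 and 0.0754 for Spred2 from limma). The most abundant gene of the list, Dusp14, had 198 ± 49.95 FPKM (SD, n = 3) with IVM and 234 ± 19.9 FPKM (SD, n = 3) with IVO (adjusted p = 0.444 from limma). Dusp7, an ERK-directed phosphatase, had a log2FC of -0.34 (adjusted p = 0.432 from limma).

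The list of EMI2 and PLK1 partners and of spindle substrates of MAPK held 18 tested genes of 25, with a median log2FC of -0.01. Of these, 2 were called lower and 0 higher, beside 17.9% and 0.606% of all tested genes. Skp1, the adaptor of the SCF ubiquitin ligases that also build on F-box proteins, was at 1346, 1087 and 811 FPKM in IVM and at 402, 464 and 365 FPKM in IVO samples (log2FC -1.37, adjusted p = 0.00606 from limma), and it was called in each of the 6 fits that left out a library but not with quantile normalization (-0.90). The scaffold Cul1 and the RING subunit Rbx1 of the same ligases were not called, with log2FC of 0.20 and 0.03, and Rbx1 was the most abundant gene of the list. Ppp3cb, a catalytic subunit of the calcium-dependent phosphatase calcineurin, had 6.90 ± 1.92 FPKM (SD, n = 3) with IVM and 2.89 ± 0.864 FPKM (SD, n = 3) with IVO (log2FC -1.02, adjusted p = 0.0422 from limma), and was called in 1 of the 6 fits and not with median-ratio scaling (-0.75).

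**Figure D3:**
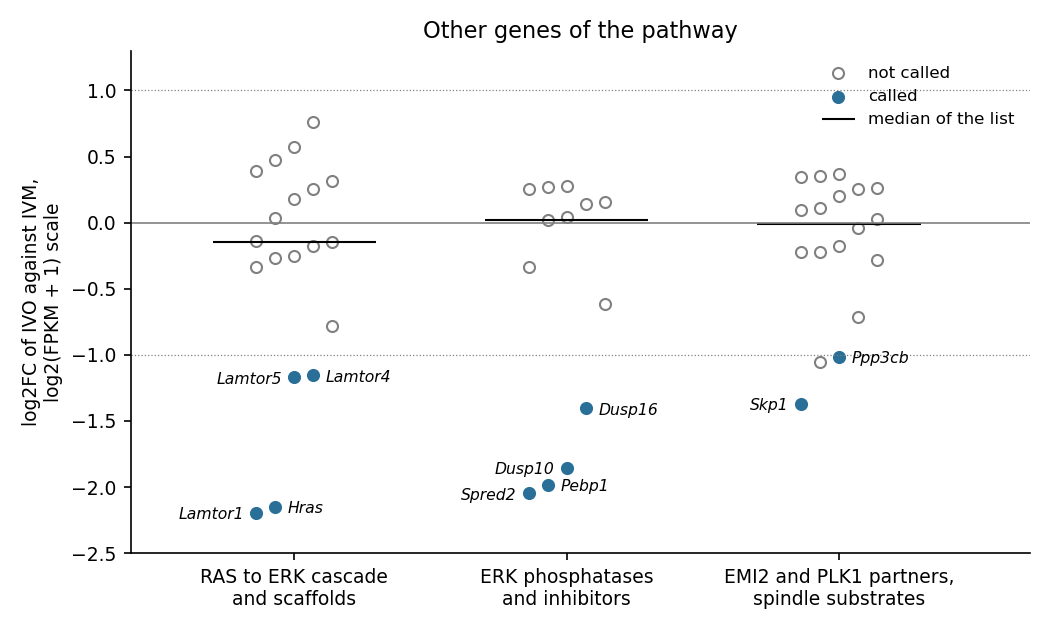
log2FC of IVO against IVM for the 50 tested genes of the 3 pathway lists, on the log2(FPKM + 1) scale; filled circles are the 10 genes called, open circles the others, and the horizontal bar is the median of each list. All filled circles lie below -1, where 1 open circle also lies, and none of the open circles lies above 1.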

How the data were processed

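Data were RNA-seq of 3 IVM and 3 IVO pools of MII oocytes. The authors amplified cDNA with the SMART-Seq v4 kit, trimmed reads (SeqPrep, Sickle), mapped these with HISAT2 2.1.0 on GRCm39, and deposited FPKM per gene and sample from RSEM 1.3.3. Tool versions follow the submitters' processing notes. The deposited group means, named as the authors' mean FPKM, were not used. The authors tested counts with DESeq2. The values here are FPKM, so no count test was run.

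The sample titles gave group and replicate number. No pair of libraries held identical values. Genes with a mean of at least 1 FPKM over the 6 samples were tested with limma 3.58.1 in R 4.3.3 (lmFit, eBayes with trend) on log2(FPKM + 1), with the group as the only term. Adjusted p-values are two-sided Benjamini-Hochberg values over all 18818 tested genes. P-values measure the spread between pools. The fit was checked on simulated data, where 131 of 200 genes with a log2 change of 2 were called, as were 8 unchanged genes. The 200 were changed in both directions among 18818 genes, whereas 3366 genes were called lower and 114 higher in the data. The rates of the simulation therefore do not carry over to these data. Some changed genes were missed even in the simulation, so a gene that was not called may still differ. Shares within a library were compared by exact permutation tests in scipy 1.17.1.

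Depth was inferred from genes with 1 annotated transcript of 500 to 2000 bases: low FPKM values lay on whole multiples, within 0.0051 FPKM, in 75.2% to 77.4% of cases per library, where the spacing of the multiples alone gives 14.3% to 16.6%. Fragment numbers are therefore approximate, and floors cover counting error only. Coordinates and 3′ UTRs are from GENCODE vM39. The members, the gene lists and the tests were chosen with earlier results of these data known. The genes named are the 8 members, Map2k2 as a paralog, each gene called in the 3 pathway lists and the most abundant of each list, and for Mos and Mapk3 the 3 genes closest in pattern. Some listed genes, counted in the list totals, are not reported by name here. Rps6ka6, Nras, Lamtor2, Lamtor3, Dusp7, Cul1, Gdf9, Bmp15 and the granulosa and cumulus genes were named after their values were seen. The alternatives were another pseudocount, other filters, 3 other scalings, no trend in eBayes, a block for the replicate number, removal of the trend with gene length, Ensembl genes only, and leaving out each library.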

Additional observations from a re-analysis of the deposited data

How the results depend on the processing

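The log2FC of Mapk3 kept its sign in all 17 alternatives (-2.44 to -1.39, adjusted p = 0.00962 to 0.0941) and the call in 10 of them. It was not called without a filter (-1.89, adjusted p = 0.0633), with quantile normalization (-1.39) or with equal sums (-1.56). Mos ranged from -1.12 to -0.35 (adjusted p = 0.0310 to 0.345) and was called with the length trend removed (-1.001) and without IVM replicate 2. Fbxo43 turned positive with median-ratio scaling (0.31), quantile normalization (0.46) and equal sums (0.32). With the length trend removed, with or without the replicate block, Rps6ka3 (-0.17) and Plk1 (-0.11) turned negative. Leaving out each library gave -2.44 to -1.52 for Mapk3, -1.12 to -0.60 for Mos, 0.12 to 0.31 for Map2k1, -0.16 to 0.27 for Rps6ka3, -0.11 to 0.14 for Fbxo43 and -0.18 to 0.20 for Plk1. The causes were not tested.

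The number of members called lower was 0 without a filter, with quantile normalization and with equal sums, 2 with the length trend removed, and 0 to 2 with a library left out. Over all tested genes, 3366 were called lower and 114 higher; with median-ratio scaling these were 2106 and 393, with quantile normalization 1580 and 1097, and with equal sums 2131 and 397. Ensembl genes only gave 1972 lower, the length trend removed 184 higher, and a library left out 2276 to 3174 lower and 82 to 130 higher. The cascade list gave 2 called lower with each of the 3 scalings, 2 to 4 with a library left out, and 1 higher with quantile normalization. The phosphatases and inhibitors gave 2 called lower without a filter and with median-ratio scaling and quantile normalization, and 2 to 4 with a library left out. The arrest partners gave 1 called lower without a filter, at a mean of at least 5 FPKM, with median-ratio scaling and with equal sums, 0 with quantile normalization, and 1 to 2 with a library left out.

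The replicate numbers gave no sign of pairing. Deviations from the group means of same-numbered samples correlated at -0.06, -0.02 and -0.11 across genes, and those of different-numbered samples at -0.02 to 0.08. The sample titles do not say whether same-numbered samples were collected together, and these correlations cannot settle it. With the replicate block 2899 genes were called lower and 92 higher, and Mapk3 stayed called (adjusted p = 0.0490). The log2 ratio of Rps6ka1 to Rps6ka3 differed by -0.49 (standard error 0.74). A log2 ratio was not run for the share of Rps6ka2, which is listed at 0 in 2 libraries, nor for Rps6ka3. Depth left Rps6ka1 at about 13 to 31 and Rps6ka2 at 0 to 9 fragments per library, under the filter, and the other members at 1258 or more.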
